A study of Mus musculus with 6 samples.

Results

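Oncofetal liver genes are made in the fetal liver, are shut down around birth and can return in liver tumours. The set described here holds 8 of the 55450 genes in the deposited table, chosen by gene symbol: Afp, H19, Igf2, Gpc3, Cd24a, Scd2, Igf2bp3 and Lin28b. The libraries come from the left liver lobe of 6 mice of the strain given as C57BL/J, 1 library per mouse. In the 3 knockout (KO) mice the LKB1 gene (Stk11) carried loxP sites (LKB1 fl/fl), and the other 3 mice were wild type (WT). Mice of both groups received Cre recombinase on an adeno-associated virus of serotype 8 (AAV8), which infects mainly hepatocytes, at 6 weeks of age, and their livers were taken 4 weeks later, at 10 weeks. The promoter that drove Cre and the sex of the mice are not given in the sources used here. The comparison asks whether fetal and tumour-linked genes differ between WT livers and livers in which Cre targeted this tumour suppressor. LKB1 is a kinase that activates AMPK and related kinases.

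The postnatal switch is one of the best-studied cases of developmental gene silencing in the liver. Afp and albumin are neighbouring relatives that are both active in the fetal liver, and only Afp is silenced after birth. The repressors Zhx2 and Zbtb20 take part in that silencing, and Zhx2 also acts on H19 and Gpc3. Igf2 and H19 are imprinted neighbours, expressed from opposite parental alleles, and LIN28B blocks maturation of the let-7 microRNAs in fetal cells, whose targets include mRNAs of growth and IMP-family genes such as Igf2bp3.

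Total counts ran from 47659122 to 56147667 per library. The check of the labels was Stk11, with 22.2, 14.4 and 11.4 CPM (counts scaled to library size) in KO 1 to 3 and 66.1, 64.2 and 69.7 CPM in WT 1 to 3, or -2.06 as a log2 fold change (adjusted p = 0.0167, edgeR; up to 0.104 with 1 library left out). Replicate 1 of each group stands apart: it holds Xist counts (42472 and 29243) and at most 6 counts of 4 Y-linked genes, whereas the other 4 libraries hold 6146 to 8199 Y-linked counts. Results are therefore also given from a fit with a term for Xist counts (the Xist-term fit) and from the other 4 libraries alone (the 4-library fit). All 8 hepatocyte markers were detected in every library, Alb at 10390 CPM or more, and they summed to 36210 to 77350 CPM in KO against 86210 to 124700 CPM in WT. Without Alb the other 7 summed to 25820 to 34910 against 29030 to 30320 CPM, a sum that joins genes that went opposite ways. Of the 8 markers 3 lay above 0 in log2 fold change, 5 below, and 1 (Tat) rose. Without overlap between groups, 3 were higher and 4 lower in KO, as were 16.9% and 15.5% of tested genes. The Xist-term fit called 1 as higher and 2 as lower, against 5.36% and 4.99% of tested genes. The 4-library fit called 2 and 4, against 17.2% and 16.1%.

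RefSeq promoter windows were given for 5 of the 8 genes. Those of Afp and Gpc3 are printed because both genes are known as targets of Zhx2 and mark hepatocellular carcinoma. The means of Afp were nearly equal between groups and every KO library lay below every WT library in Gpc3, but neither gene passed the test in all 6 libraries, and the difference between them was not tested. The windows hold the 250 bases before the RefSeq start on build GRCm38.p6, chr5:90490464-90490713 (plus strand) for Afp and chrX:52613975-52614224 (minus strand) for Gpc3. Capitals mark letters that match, on either strand, the HNF1 half-site GTTAAT, a loose form of the full HNF1 site, the TATA box TATAAA or the CRE half-site TGACG; HNF1 is a hepatocyte transcription factor.
Afp: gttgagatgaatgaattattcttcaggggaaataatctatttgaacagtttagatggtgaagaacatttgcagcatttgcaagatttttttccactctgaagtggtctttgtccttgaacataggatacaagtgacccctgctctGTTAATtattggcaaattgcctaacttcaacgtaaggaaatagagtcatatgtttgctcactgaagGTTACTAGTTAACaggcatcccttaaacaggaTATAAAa
Gpc3: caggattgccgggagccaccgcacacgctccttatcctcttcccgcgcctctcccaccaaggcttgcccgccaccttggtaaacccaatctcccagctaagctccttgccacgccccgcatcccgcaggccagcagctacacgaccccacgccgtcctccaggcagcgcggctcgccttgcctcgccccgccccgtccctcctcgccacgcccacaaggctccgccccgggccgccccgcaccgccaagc
In the Afp window GTTAAT lay at -105 to -100 from the RefSeq start, the loose HNF1 site at -39 to -27 and TATAAA at -7 to -2, and the GENCODE start lies 23 bases further downstream. TGTTTNC, the core site of FOXA transcription factors, was searched too and matched the Afp window at -55 to -49, without capitals. The full HNF1 and CRE sites were also searched and had no match in either window. The loose form, which overlaps no other capital run, was added to the search after the window had been seen. Among 32851 promoter windows of this length GTTAAT occurred in 6.43%, the loose HNF1 site in 0.0822%, TATAAA in 12.4%, TGACG in 17.8% and the FOXA core in 17.8%. No match to these motifs was found in the Gpc3 window, which says only that these letters are not in it.

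No oncofetal gene reached a high level in the KO livers, and none passed the test in either direction in the fit of all 6 libraries. Of the 8 genes, 6 passed the filter on low counts, H19 and Lin28b did not, and 0 of the 6 passed an adjusted p of 0.05 (edgeR, quasi-likelihood). Of the 14539 genes tested, 3.37% passed, 2.15% as higher and 1.22% as lower. Igf2 alone had an unadjusted p-value under 0.05, where the share among all tested genes was 26.3%. DESeq2 called 0 of 7, against 14.5% of the genes it tested, and limma voom 0 of 6, against 2.97%. The 6 log2 fold changes had a median of -0.36, beside 0.01 over all tested genes, with 3 above and 3 below 0. In Igf2 and Gpc3 every KO library lay below every WT library, which was so for 15.5% of tested genes; 32.4% did not overlap in either direction. No tested member lay above WT in all 3 KO libraries.

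Per kilobase of annotated exon, the levels in WT were 1.40 ± 0.55 CPM per kb for Scd2, 1.02 ± 0.57 for Cd24a, 0.348 ± 0.238 for Gpc3, 0.260 ± 0.018 for Afp, 0.0873 ± 0.0688 for H19, 0.0863 ± 0.0151 for Igf2 and 0.0135 ± 0.0113 for Igf2bp3 (SD, n = 3). Lin28b came last, at 0. Between neighbours in this order, the WT ranges did not overlap from Cd24a to Gpc3, from Afp to H19, from Igf2 to Igf2bp3 and from Igf2bp3 to Lin28b, and they overlapped at the other steps. In KO the order was Cd24a at 1.17 ± 0.61, Scd2 at 0.836 ± 0.304, Afp at 0.262 ± 0.127, Gpc3 at 0.0915 ± 0.0891, H19 at 0.0653 ± 0.0645, Igf2 at 0.0466 ± 0.0082 and Igf2bp3 at 0.0360 ± 0.0307 CPM per kb. Scd2 and Cd24a exceeded 35.5% and 35.2% of the tested genes in mean level per kb, Afp 15.4%, Gpc3 13.4% and Igf2 3.31%.

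**Figure D1:**
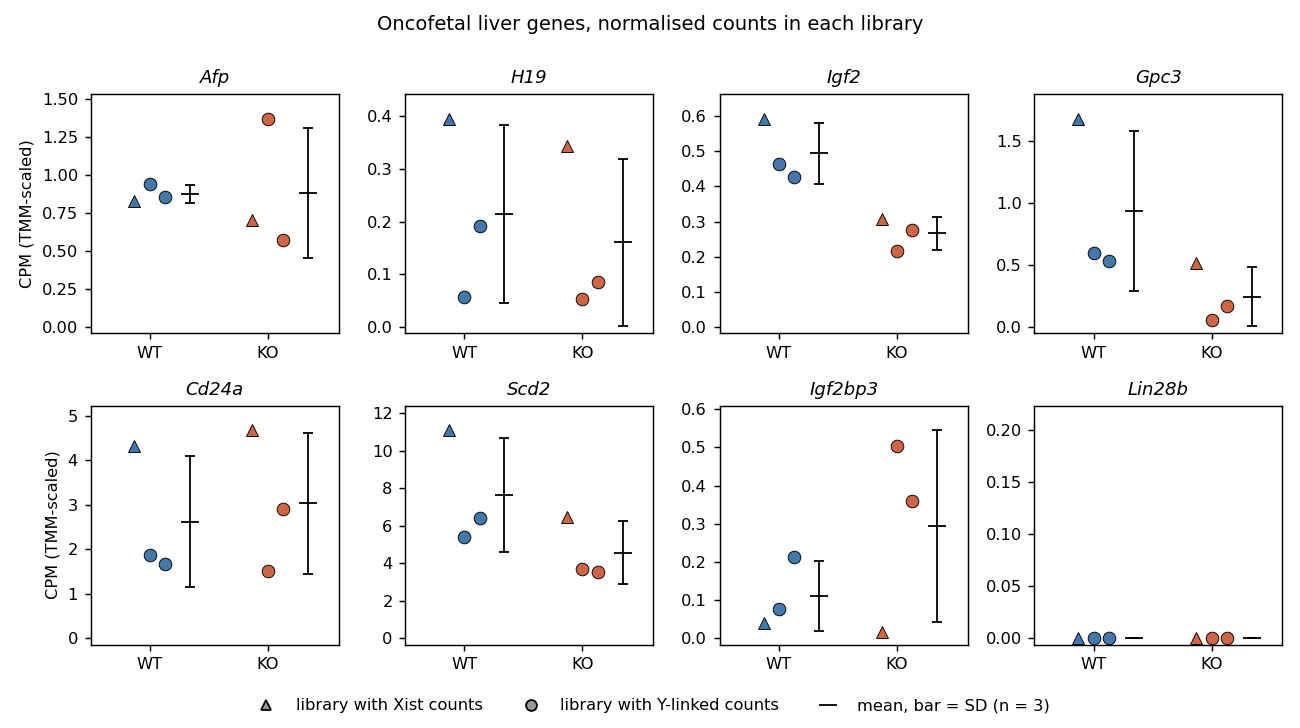
Normalised counts (CPM) of the 8 oncofetal genes in each library, WT in blue and KO in red, on linear axes that differ between panels. Triangles are libraries with Xist counts, circles libraries with Y-linked counts, and the bar gives the mean and SD of the 3 libraries. Igf2 and Gpc3 do not overlap between groups, Afp has the same mean in both, and Lin28b is at 0 throughout.

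Afp encodes alpha-fetoprotein, the main plasma protein of the fetus and a serum marker of hepatocellular carcinoma (ENSMUSG00000054932.6, chromosome 5, 90490737 to 90508907, plus strand). It had 0.703, 1.37 and 0.573 CPM in KO 1 to 3 and 0.828, 0.945 and 0.855 CPM in WT 1 to 3. The highest and the lowest values were both KO libraries, on either side of a narrow WT range. Means were 0.882 ± 0.427 CPM in KO and 0.876 ± 0.061 CPM in WT (SD, n = 3). The log2 fold change was 0.01, with a 95% interval from -0.92 to 0.95 and an adjusted p-value of 0.989 in edgeR.

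Alb ends 14.1 kb before Afp. It had 50550, 10390 and 17530 CPM in KO and 95630, 69980 and 57060 CPM in WT, without overlap (log2 fold change -1.50, adjusted p = 0.19). Afm, the next gene of the cluster, had a log2 fold change of -1.19 (adjusted p = 0.185), and 0 of the 4 albumin-family genes were called. The difference between Alb and Afp was not tested. Alb and Afm fell when KO 1 was left out, at -2.42 (adjusted p = 0.0136) and -1.98 (adjusted p = 0.00482). That fit called 2101 of 14833 tested genes as lower. Both genes also fell in the 4-library fit, at -2.19 (adjusted p = 0.0186) and -1.78 (adjusted p = 0.00379). In the Xist-term fit Afm was called (-1.40, adjusted p = 0.0408) and Alb was not (-1.77, adjusted p = 0.0616). Per kb of exon, Alb exceeded Afp by 95980-fold to 166100-fold in WT and by 10920-fold to 103400-fold in KO, with the lowest ratio in KO 2. That library had the highest Afp and the lowest Alb level of the 6.

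Gpc3 encodes glypican-3, a heparan sulphate proteoglycan held to the cell surface by a lipid anchor and used as a tissue marker of hepatocellular carcinoma (ENSMUSG00000055653.13, chromosome X, 52272426 to 52613950, minus strand). It had 0.515, 0.0540 and 0.170 CPM in KO, from 30, 3 and 8 counts, and 1.68, 0.598 and 0.535 CPM in WT. The highest KO library, KO 1, lay just under the lowest WT library. The log2 fold change was -1.90 ± 0.82 (SE), with a 95% interval from -3.84 to 0.03 and an adjusted p-value of 0.197. With the term for Xist counts it was -2.07 (adjusted p = 0.0412), in the 4-library fit -2.36 (adjusted p = 0.0266), and without KO 1 -3.08 (adjusted p = 0.0347), so Gpc3 fell in those fits. The fit without KO 1 called 2101 of 14833 tested genes as lower.

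Gpc4, next to Gpc3 on chromosome X, had 37.9, 28.9 and 30.8 CPM in KO against 50.2, 43.8 and 50.0 CPM in WT (log2 fold change -0.56, adjusted p = 0.0747), and it fell in the fit with the term for Xist counts (-0.57, adjusted p = 0.0374). Gpc6 had a log2 fold change of -1.03 (adjusted p = 0.327). All 4 tested glypicans of 6 had a log2 fold change below 0, with 0 called, as had 49% of all tested genes. The Xist-term fit called 2 of the 4 as lower (4.99% of all tested genes) and the 4-library fit 4 (16.1%). Gpc1 stood apart by library, at 4.19, 1.66 and 2.14 CPM in KO and 0.927, 4.65 and 5.07 CPM in WT. It was higher in KO 1 than in WT 1 and lower in KO 2 and KO 3 than in WT 2 and WT 3, and this interaction was called (3.53, adjusted p = 0.0181, edgeR).

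Igf2 encodes a fetal growth factor expressed from the paternal allele (ENSMUSG00000048583.16, chromosome 7, 142650766 to 142666816, minus strand). It had 0.309, 0.216 and 0.276 CPM in KO and 0.591, 0.463 and 0.428 CPM in WT, without overlap, although these values rest on only 12 to 30 counts. Means were 0.267 ± 0.047 and 0.494 ± 0.086 CPM (SD, n = 3). The log2 fold change of -0.88 ± 0.35 (SE; 95% interval -1.71 to -0.05) had an unadjusted p-value of 0.0398 and an adjusted p-value of 0.169 in edgeR. It was also -0.88 with the term for Xist counts (adjusted p = 0.103). Of the 76-base stretches in Igf2 transcripts 60.6% also occur in Gm49394 on the same strand or Igf2os on the opposite strand. Gm49394 had 0 counts in every library and Igf2os had 2 counts in KO 3 and 0 elsewhere.

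H19, a maternally expressed non-coding RNA (ENSMUSG00000000031.16, chromosome 7, 142575529 to 142578143, minus strand), lies 72.6 kb from Igf2. Its counts were 20, 3 and 4 in KO and 20, 3 and 9 in WT. In both groups replicate 1 was the highest library, and the groups overlapped. It was below the filter; tested without a filter, its log2 fold change was -0.40 (adjusted p = 0.829, edgeR). The read counts are not specific to an allele, so imprinting itself cannot be read from them.

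Scd2 encodes a stearoyl-CoA desaturase, which puts the double bond into saturated fatty acids and is the isoform of the fetal and newborn liver (ENSMUSG00000025203.6, chromosome 19, 44293674 to 44306864, plus strand). It had 6.48, 3.69 and 3.52 CPM in KO and 11.1, 5.42 and 6.39 CPM in WT. KO 1 reached the WT range, and KO 2 and KO 3 lay below it. The log2 fold change was -0.74 ± 0.36 (SE), with a 95% interval from -1.58 to 0.10 and an adjusted p-value of 0.238. Scd2 fell in the fit with the term for Xist counts (-0.73, 95% interval -1.06 to -0.40, adjusted p = 0.0348) and in the 4-library fit (-0.72, adjusted p = 0.0309).

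Scd1, the adult isoform, was 429-fold to 2063-fold higher than Scd2 per kb, and 1.74% of the 76-base stretches of Scd2 also occur in Scd1, Scd3 or Scd4. Scd1 had 11980, 1419 and 4205 CPM in KO and 7773, 7384 and 4530 CPM in WT, highest in KO 1, where Scd2 was highest in WT 1. Its log2 fold change was -0.16 (adjusted p = 0.901).

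Cd24a encodes a small glycoprotein held to the surface of bile duct, progenitor and B cells (ENSMUSG00000047139.9, chromosome 10, 43578284 to 43584265, plus strand). It had 4.67, 1.51 and 2.91 CPM in KO and 4.32, 1.87 and 1.67 CPM in WT. The 2 highest values were replicate 1 of each group, and the groups overlapped. The log2 fold change was 0.21, with a 95% interval from -1.02 to 1.44 and an adjusted p-value of 0.826. With the term for Xist counts the interval narrowed to between -0.44 and 0.93 (adjusted p = 0.571).

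Igf2bp3 and Lin28b encode RNA-binding proteins of fetal cells. Igf2bp3 (ENSMUSG00000029814.10, chromosome 6, 49085223 to 49214957, minus strand) had 1, 28 and 17 counts in KO and 2, 4 and 10 in WT, or 0.0172, 0.504 and 0.361 CPM against 0.0394, 0.0771 and 0.214 CPM. KO 2 and KO 3 were the highest libraries and KO 1 the lowest of all 6. The log2 fold change of 1.41 ± 1.04 (SE; 95% interval -1.06 to 3.88) did not pass the test (adjusted p = 0.424), and neither did that of 1.58 in the 4-library fit (adjusted p = 0.0822). Igf2bp3 passed the filter through KO 2, KO 3 and WT 3.

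Of the 76-base stretches of Igf2bp3 17.8% lie in Malsu1, an overlapping gene on the opposite strand with 365 to 517 counts. Whether the counting used strand is not given in the sources used here, so part of the few Igf2bp3 reads may belong to Malsu1. Malsu1 had its highest count, 517, in KO 1, where Igf2bp3 had 1, and all deposited Igf2bp3 counts were whole numbers. A share of Malsu1 reads among those of Igf2bp3 was not tested. Lin28b (ENSMUSG00000063804.8, chromosome 10, 45376620 to 45486395, minus strand) had 0 counts in each of the 6 libraries, which allows up to 3 counts or 0.0515 to 0.0641 CPM per library, counting error only.

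**Figure D2:**
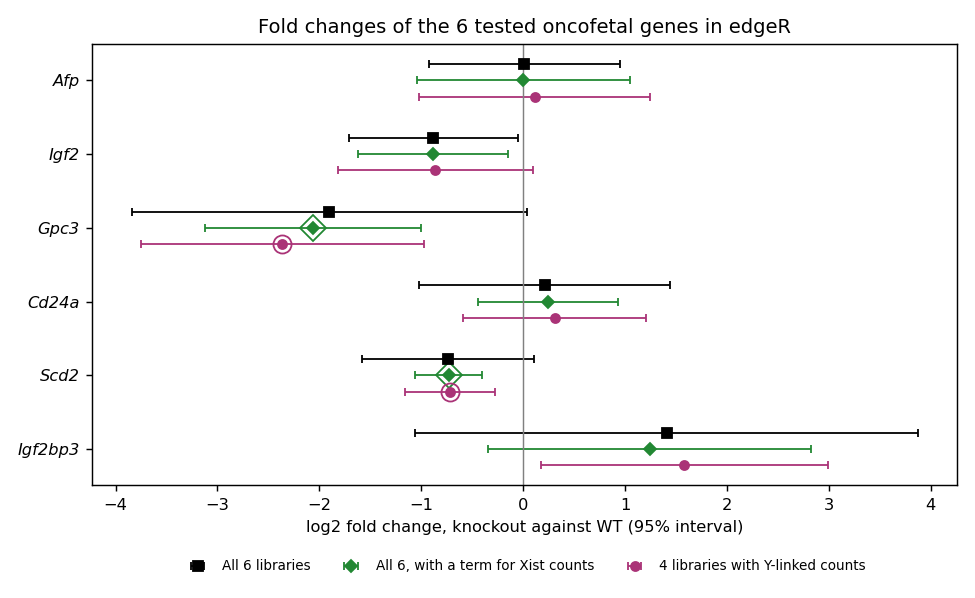
Log2 fold changes of KO against WT with 95% intervals for the 6 tested oncofetal genes in 3 edgeR fits, where an open outline marks an adjusted p-value under 0.05. Gpc3 and Scd2 are outlined in the Xist-term fit and in the 4-library fit, and no gene is outlined in the fit of all 6 libraries without that term.

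The fit with the term for Xist counts called 2 of 6, Gpc3 and Scd2, where 10.3% of tested genes were called and 4.99% as lower. The 4-library fit called the same pair, where 33.3% of tested genes were called and 16.1% as lower; the members' share equals that background. An interaction term, which asks whether the KO effect differed between replicate 1 and the rest, was called for 0 of 6 members and 2.9% of tested genes (20.9% at an unadjusted p under 0.05), with member adjusted p-values from 0.457 (Igf2bp3) to 0.962 (Igf2) in edgeR.

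Replicate 1 was the highest library of its group in both groups for 4 of the 6 tested members, Igf2, Gpc3, Cd24a and Scd2, and for 21.2% of all tested genes. H19 had the same order. The term for Xist counts itself, examined after these values were seen, was called for 0 of 6 members and 0.138% of tested genes (0.0825% as higher with Xist). Its log2 values were 1.84 for Gpc3 (adjusted p = 0.15), 0.88 for Scd2 (adjusted p = 0.0992) and -3.19 for Igf2bp3 (adjusted p = 0.173). The labels do not give sex, and each group holds only 1 library with Xist counts, so a property of those 2 mice other than Xist state cannot be told apart from it.

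Several members are made by liver cells other than hepatocytes, and in whole tissue fewer cells of a type and less RNA per cell cannot be told apart. The 3 genes nearest to Scd2 over the 6 libraries, out of 11972, were Colec10, Cavin1 and Zfp41, at root mean square distances of 0.0512, 0.0591 and 0.0601 on centred log2 CPM. Those nearest to Cd24a were Ehf, Gm7463 and the bile duct keratin Krt19, at 0.137, 0.166 and 0.183. Scd2 thus had closer neighbours than Cd24a. These distances describe 6 libraries and carry no test.

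**Figure D3:**
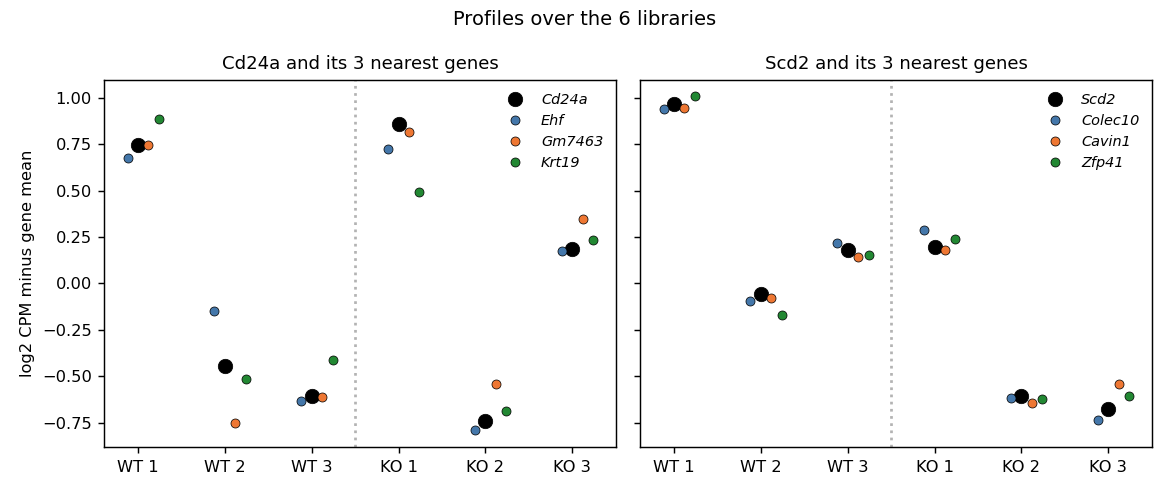
Log2 CPM minus the gene's own mean in each library, for Cd24a (left) and Scd2 (right) in black and the 3 genes with the nearest profiles in colour. Cd24a and its neighbours are high in replicate 1 of both groups, and Scd2 and its neighbours are highest in WT 1 and lowest in KO 2 and KO 3.

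Markers of such cells were compared over the same libraries. All 6 endothelial markers had a log2 fold change below 0 (0 called), and their summed level was 67.2 to 112 CPM in KO against 135 to 185 CPM in WT. All 8 stellate cell markers were below 0 (0 called), at 111 to 233 against 181 to 383 CPM, as were the 5 of 6 fibroblast markers tested, at 12.6 to 86.2 against 51.9 to 139 CPM. Bile duct markers were split, 4 of 7 tested below 0 with 0 called, at 31.0 to 86.0 against 53.0 to 85.6 CPM. B cell markers, which could carry Cd24a, summed to 0.270 to 2.78 against 2.35 to 2.92 CPM, with 5 of 5 below 0 and 0 called. No marker of the endothelial, stellate, fibroblast and B cell lists was at 0 in all libraries. In the fits that called Gpc3 and Scd2, these lists held calls as well. The Xist-term fit called 4 of 6 endothelial, 2 of 5 fibroblast and 1 of 8 stellate markers as lower, 0 of 7 bile duct and 0 of 5 B cell markers, where the share over all genes was 4.99%. The 4-library fit called 5, 5 and 3 of them as lower, 2 bile duct and 3 B cell markers, where the share was 16.1%. The part of these cells in the results for the oncofetal genes was not tested.

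Of the 18 regulators of the postnatal switch, all tested, 0 were called, 7 were above and 11 below 0, and the median was -0.07. The Xist-term fit also called 0, and the 4-library fit called 2 as higher and 4 as lower. Over all tested genes that last fit called 17.2% as higher and 16.1% as lower. Zhx2, a repressor of Afp, H19 and Gpc3, had 12.4, 12.8 and 15.0 CPM in KO and 12.6, 17.5 and 16.9 CPM in WT, a log2 fold change of -0.23 (95% interval -0.62 to 0.17, adjusted p = 0.417). Zbtb20, a repressor of Afp, had a log2 fold change of -0.06 (95% interval -0.67 to 0.55, adjusted p = 0.897). Among the smallest p-values were those of Cebpa and Foxa1, transcription factors of hepatocytes, at log2 fold changes of -0.56 and -0.88 (adjusted p = 0.107 and 0.128), both without overlap. Zhx2 and Zbtb20 are named for their known role, outside the rule for named genes.

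In the list around LIN28, let-7 and the IMP proteins, 1 of 12 tested genes was called. Myc, an oncogene and let-7 target, rose from 3.02, 2.04 and 2.14 CPM in WT to 11.6, 41.8 and 19.9 CPM in KO, which is 3.35 ± 0.49 (SE) in log2 (adjusted p = 0.0258, edgeR). The call was lost without KO 3 (3.48, adjusted p = 0.108) and without any of the WT libraries (adjusted p from 0.0551 to 0.153), in limma voom (adjusted p = 0.0533) and with the replicate block (3.17, adjusted p = 0.0664). Mycn, its relative in fetal tissue, had 0.12, 0 and 0.0212 CPM in KO against 0.611, 0.366 and 0.599 CPM in WT (log2 fold change -3.36, adjusted p = 0.0755). Igf2bp2, the IMP gene of the adult liver, had 3.23, 2.54 and 1.93 CPM in KO and 1.64, 1.16 and 1.09 CPM in WT, without overlap (0.99, adjusted p = 0.105). Mycn fell and Igf2bp2 rose in the Xist-term fit (both adjusted p = 0.0424), in the 4-library fit (adjusted p = 0.00913 and 0.0379) and in DESeq2 (adjusted p = 0.00364 and 0.0303). Lin28a, like Lin28b, was at 0 in every library.

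Around Igf2, 0 of 16 genes for IGF ligands, receptors and binding proteins were called, with 12 below 0 and a median of -0.30. The Xist-term fit called 1 as higher and 4 as lower, against 5.36% and 4.99% of all tested genes. The 4-library fit called 2 and 5, against 17.2% and 16.1%. Those with the smallest p-values were Irs2, an insulin receptor substrate (1.06, adjusted p = 0.0712), Igfals, which holds IGFs in the circulation (-1.22, adjusted p = 0.0936), and Igfbp6, which prefers IGF-II as its ligand (-2.65, adjusted p = 0.0967). All 3 were called in the Xist-term fit (adjusted p = 0.0401, 0.0370 and 0.0406), and in the 4-library fit Irs2 (adjusted p = 0.00316) and Igfals (adjusted p = 0.00274) were. Of the imprinted growth genes 15 of 22 were tested and 0 called. In this list 14 of 15 log2 fold changes were below 0 with a median of -0.52, and 12 of 15 with scaling by library size alone or 11 of 15 in the 4-library fit. Over all tested genes 49% were below 0 in the fit of all 6 libraries. The 4-library fit called 4 of the 15 as lower (16.1% of all tested genes), and the Xist-term fit called 0 (4.99% as lower). Peg3 and Peg10, both expressed from the paternal allele, had log2 fold changes of -0.70 (adjusted p = 0.159) and -1.05 (adjusted p = 0.169). Neither overlapped between groups, a separation that 15.5% of tested genes showed in this direction. Peg10 fell in the 4-library fit (-1.46, adjusted p = 0.0473).

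A further list held other genes of fetal or tumour-prone liver. Of the 39 genes found, 28 were tested, 3 rose, 0 fell, and the median was 0.13. Ly6d, a surface protein of the Ly6 family, rose from 0.631, 0.366 and 0.406 CPM in WT to 17.0, 33.3 and 12.5 CPM in KO (log2 fold change 5.48 ± 0.47 (SE), adjusted p = 0.00596). Prom1, the progenitor marker prominin-1, rose from 6.98, 1.08 and 1.13 CPM to 63.5, 39.2 and 68.4 CPM (4.21 ± 0.79, adjusted p = 0.0442). Akr1c18, an aldo-keto reductase that inactivates progesterone, rose from 0.217, 0.193 and 0.0641 CPM to 0.944, 2.20 and 1.91 CPM (3.38 ± 0.55, adjusted p = 0.0324). Of the tested genes 2.15% were called as higher. Among the 28 list genes 0 were called without WT 2 or without WT 3, and 1 without KO 2 or without KO 3. With DESeq2 10 of the 28 rose and 1 fell, where 7.99% of all genes it tested were called as higher. With the replicate block only Ly6d was called, as Prom1 (adjusted p = 0.0512) and Akr1c18 (adjusted p = 0.0777) were not, and Prom1 was not called with robust fitting (adjusted p = 0.0584). Of the 28 genes, 27 were also tested in the 4-library fit, 11 called as higher and 4 as lower. That fit called 17.2% of all its tested genes as higher and 16.1% as lower. Bex1 (5.07, adjusted p = 0.0092, edgeR) and Gpx2 (4.95, adjusted p = 0.0391) were also called as higher there. Neither had passed the filter on low counts in all 6 libraries. The difference between this list and the 8 oncofetal genes was not tested.

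**Figure D4:**
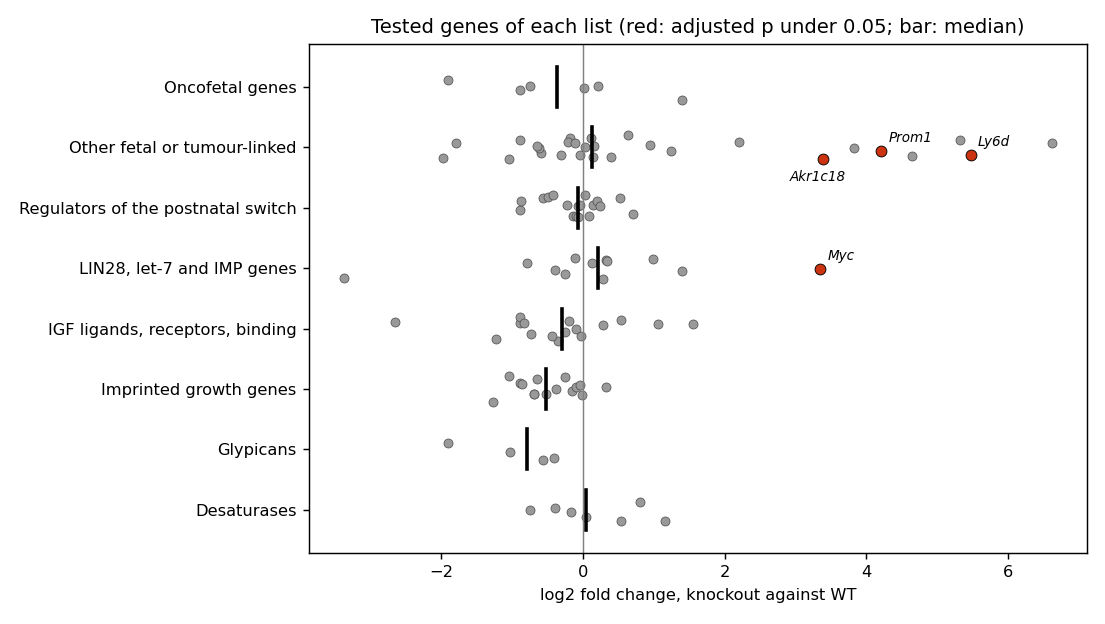
Log2 fold changes of KO against WT for the tested genes of 8 lists, 1 point per gene with vertical scatter for legibility, in red where the adjusted p-value is under 0.05, and with a bar at the median. No oncofetal gene is red, while Ly6d, Prom1, Akr1c18 and Myc are, all of them higher in KO.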

How the data were processed

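Per the submitters' processing notes, bcl2fastq 2.17, cutadapt 1.18, STAR 2.7.0f and RSEM 1.3.1 were used with genome mm9. The authors deposited expected counts, RSEM's estimated reads per gene, for 55450 genes in 6 libraries. All 55450 versioned identifiers were found in GENCODE M21, an annotation of GRCm38, so gene positions here are those of GRCm38 although the notes name mm9. Use of strand is not given in the sources used here.

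Expected counts were rounded, filtered by filterByExpr (14539 genes kept), scaled by TMM and tested with the quasi-likelihood test of edgeR 4.0.16 in R 4.3.3, group as the only term, all 6 libraries sharing 1 estimate of spread. P-values were adjusted by Benjamini-Hochberg over all tested genes, with 0.05 as threshold. CPM use TMM-scaled sizes, and log2 CPM a prior count of 2. SE is the log2 fold change divided by the root of F, and intervals use the fit's degrees of freedom. DESeq2 1.42.0, limma voom (limma 3.58.1), other scalings, no filter, robust fitting, a replicate block, a term for Xist counts and left-out libraries were alternatives. The test was tried on simulated data.

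The 8 genes, the lists and the alternatives were chosen with earlier results of these data known. Named were the 8 genes, called members of each list, or the 3 with the smallest p-values where fewer were called, and the 3 nearest profiles among genes with a mean of at least 1 CPM. The text leaves out list genes that no result here turns on. Some list genes that the rule would name are not reported here. Replicates are separate mice. No library repeated another: the closest pair, WT 2 and WT 3, had a chi-square per degree of freedom of 28.9 over genes.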

Additional observations from a re-analysis of the deposited data

How the results depend on the processing

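The number of genes called among all tested, 490, was 2246 in DESeq2, 771 without the low-count filter, 105 with the replicate block, 1504 with the term for Xist counts, 4847 in the 4-library fit and between 6 and 4473 when 1 library was left out. The number of oncofetal genes called, 0, became 2 with the term for Xist counts and 2 in the 4-library fit, and lay between 0 and 1 with 1 library left out. Gpc3 passed the threshold at -2.07 and -2.36 in the former fits, with a range of -3.08 to -1.18 over left-out libraries, and Scd2 at -0.73 and -0.72, with a range of -1.09 (without KO 1) to -0.37 (without WT 1). Afp turned sign in limma voom (-0.0791), with RLE factors (-0.0006) and with the replicate block (-0.0782). Among left-out libraries it ran from -0.45 (without KO 2) to 0.24 (without KO 3). Over left-out libraries Cd24a ran from -0.26 to 0.77, Zbtb20 from -0.26 to 0.15 and Scd1 from -1.23 to 0.31. The cause of these changes was not tested. Igf2 and Igf2bp3 kept their direction and were not called in any of 15 alternatives, with adjusted p-values from 0.0925 to 0.37 and from 0.0675 to 0.773; Igf2bp3 ran from 0.74 (without KO 2) to 2.28 (without WT 3). Scaling by library size alone made 74.4% of calls higher in KO in place of 63.9%.

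Whether the replicate numbers pair the mice is not given in the labels. Deviations from group means correlated across genes at 0.178, 0.0443 and 0.0679 for numbers 1 to 3. Between libraries of unlike number they ran from -0.167 (KO 3 and WT 1) to 0.203 (KO 3 and WT 2). With so few libraries per group these values cannot settle whether mice were paired. With the replicate block 0 of 6 oncofetal genes were called. Depth limits H19, Igf2, Igf2bp3, Gpc3 and Lin28b, where 1 count is worth 0.0172 to 0.0214 CPM.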

Other observations

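Of 10 desaturases 7 were tested and 0 called, with a median log2 fold change of 0.04. The smallest p-values belonged to Degs1, which desaturates dihydroceramide, and to Fads6, a fatty acid desaturase family member. Degs1 had 92.9, 195 and 183 CPM in KO and 73.1, 70.5 and 67.8 CPM in WT (1.15, adjusted p = 0.0683), and Fads6 had 176, 162 and 182 CPM against 110, 126 and 123 CPM (0.53, adjusted p = 0.0743), both without overlap. Degs1 rose in the Xist-term fit (adjusted p = 0.0482) and in the 4-library fit (adjusted p = 0.00135), and Fads6 rose in the latter (adjusted p = 0.0423). Of 10 genes of fatty acid synthesis and elongation 0 were called, with a median of 0.11. The Xist-term fit called 1 as higher (5.36% of all tested genes). The 4-library fit called 2 as higher and 2 as lower, against 17.2% and 16.1% of all tested genes.

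Proliferation markers were highest in KO 1. Their summed level was 52.6 CPM in KO 1, 5.17 and 4.16 CPM in KO 2 and KO 3, and 4.88 to 8.66 CPM in WT, and 0 of 6 were called. The 4-library fit called 1 as higher and 1 as lower, against 17.2% and 16.1% of all tested genes. In KO 1, Gpc3, H19, Igf2, Cd24a and Scd2 were the highest of the KO libraries, while Igf2bp3 was the lowest. The same order held for WT 1 among the WT libraries, where proliferation markers summed to 8.66 CPM. A link between these genes and proliferation was not tested. Among 7 sex-biased liver genes 0 were called, with 1 above and 6 below 0 and a median of -3.23. Their summed level was 9222 and 10620 CPM in WT 2 and WT 3, 576 CPM in WT 1 and 669 to 1166 CPM in KO. This sum and this median join genes that went opposite ways. The 4-library fit called 1 as higher and 5 as lower, against 17.2% and 16.1% of all tested genes. The higher gene was Cyp2a4 (10.33), and among the lower were Hsd3b5 (-11.20), Elovl3 (-10.71) and Cyp4a12a (-9.96). All of these were named after their values were seen.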
